A study of Mus musculus with 16 samples.

Results

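The mRNAs of 9 factors that read or set the length of the poly(A) tail were followed through CPEB4 RNA-immunoprecipitation (RIP) of mouse bone marrow-derived macrophages (BMDMs). They were chosen by symbol, 9 of the 14925 genes in the deposited 3′-UTR table, and are Pum2, a Pumilio RNA-binding protein; Btg1, Btg2, Tob1 and Tob2, the BTG/TOB adaptors of deadenylation; Pabpc1 and Pabpc4, cytoplasmic poly(A)-binding proteins; and Papola and Papolg, the canonical poly(A) polymerases. The 9 genes had 34 of the 30622 3′-UTR regions with a symbol, and the region with the most reads stood for each gene. BMDMs are macrophages grown from marrow precursors, and LPS is a bacterial cell wall component that activates them through Toll-like receptor signalling. Primary BMDMs came from wildtype (WT) or full Cpeb4 knockout (KO) mice of a C57BL/6J and 129 background and were left untreated or stimulated for 9 h with LPS at 10 ng/ml. For each genotype and treatment the starting lysate (Input) was sequenced beside the RNA recovered by a CPEB4 antibody (RIP), which gave 8 libraries, each run on 2 lanes that the deposited counts sum. There was 1 library per group and no replicate, so the values below compare libraries, every interval covers counting error only, and genotype cannot be told apart from a difference between the mice or cultures. The exons removed in the KO allele are not given in the sources used here.

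CPEB4 binds cytoplasmic polyadenylation elements (CPEs) in 3′-UTRs and, with its partners, lengthens or shortens the tail of the bound mRNA. Pumilio proteins bind a separate element and can recruit the CCR4-NOT deadenylase, the complex that shortens tails. BTG/TOB proteins link CCR4-NOT to RNA-bound partners, with TOB proteins and BTG proteins joined to its catalytic subunits through a shared domain. Cytoplasmic poly(A)-binding proteins coat the tail, which supports translation and also serves as a docking site for deadenylases, while canonical poly(A) polymerases add the tail after cleavage. In macrophages, tail length and stability of cytokine mRNAs are a known point of control during the LPS response.

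Elements that CPEB4 or Pumilio proteins are known to bind were found in the counted regions of 8 of the 9 genes. The exception, Pabpc4, was counted only over 135 bases in exon 3 of a 15-exon transcript. Pum2, Btg1 and Papolg carried the Pumilio element TGTANATA, which 23.6% of all 14925 counted regions held on the transcript strand. Sites from these genes are shown because 3 of the genes of the tail machinery carry the element that Pum2 protein itself recognises. The element is in capitals, each window is 30 bases of GRCm38 read 5′ to 3′ on the transcript strand, and every window lies in a last exon within the 3′-UTR.
Pum2, chr12:8750154-8750183, plus strand: gtttatagagaTGTATATAgaattatagtt
Pum2, chr12:8750407-8750436, plus strand: atgtacagaatTGTATATActtataattgt
Btg1, chr10:96622021-96622050, plus strand: agtaattttgcTGTAAATAttaacggggtt
Papolg, chr11:23863388-23863417, minus strand: tccttcatttgTGTAGATAtctattttgtt
In Pum2 both sites had the same 8 letters and began 2417 and 2164 bases before the end of the region, between consensus CPEs. Of regions whose length was within 20% of its own, 13.6% held as many Pumilio elements as Pum2, against 22.3% for Btg1 and 23.9% for Papolg.

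Consensus CPEs (TTTTAT or TTTTAAT) were present in 8 of the 9 counted regions and in 57.4% of all regions. Pum2 held 8, Btg1 7, Papola 7, Btg2 2, Tob2 2, Papolg 2, Tob1 1 and Pabpc1 1, and the Pabpc4 region of 135 bases held none. Among regions of such like length, as many consensus CPEs as in Papola were found in 4.93% and as many as in Pum2 in 9.79%, whereas the counts of Btg2 and Tob2 were matched by 63.8% and 68.1%. Non-consensus CPEs (the letters TTTTAAAT, also TTTTACT, further TTTTCAT, and TTTTAAGT) were found in 6 of the 9 genes and 41% of all regions, with 3 in the short region of Tob1, a count that 1.54% of regions of like length reached. TTTTGT was present in 8 of the 9 genes and the AU-rich pentamer ATTTA in the same number, against 54.6% and 65.2% of all regions. Of regions like Pum2, Btg1, Btg2, Tob2 or Papola in length, 78% to 95.6% held TTTTGT and 89.5% to 98.5% ATTTA. Consensus CPEs were in 81.3% to 93.9% of them and non-consensus CPEs in 60% to 83.1%. For the shorter Tob1, Pabpc1 and Papolg, 32% to 65% held TTTTGT and 43.3% to 79% ATTTA. Their shares with consensus CPEs were 37.2% to 67.4% and with non-consensus CPEs 18.1% to 46%. The consensus CPE nearest the 3′ end is shown, in capitals, for the genes called higher in WT than KO RIP below and for Pabpc1, which was not called in that ratio on 3′-UTR sums, so that the sites can be set beside their values.
Pum2, chr12:8751625-8751654, plus strand: tagaagggatttTTTTATtcgaggtctgca
Btg1, chr10:96621372-96621401, plus strand: ttttttttttttTTTTATttcgagaggtgt
Btg2, chr1:134075337-134075366, minus strand: ttcttttttgtTTTTAATaaaaatgtagca
Tob2, chr15:81848832-81848861, minus strand: agaagaacttttTTTTATtttttacatttt
Papola, chr12:105838018-105838047, plus strand: ttttaaactaatTTTTATttttaaccagtt
Pabpc1, chr15:36595837-36595866, minus strand: aacaaattaatgTTTTATagaccctgggaa
In Btg2 this CPE overlapped the only polyadenylation hexamer (AATAAA) of the region, and 2 consensus CPEs lay within 100 bases before that hexamer. In Pum2, Btg1, Tob2 and Papola the consensus CPE nearest the end lay 945, 1430, 580 and 778 bases from it, with none in the last 500 bases. Pum2 also had consensus CPEs at bases 381 and 651 that overlapped upstream AATAAA hexamers at 385 and 655. In its shorter annotated region of 1734 bases, the CPE at base 1724 lay near the end.

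**Figure D1:**
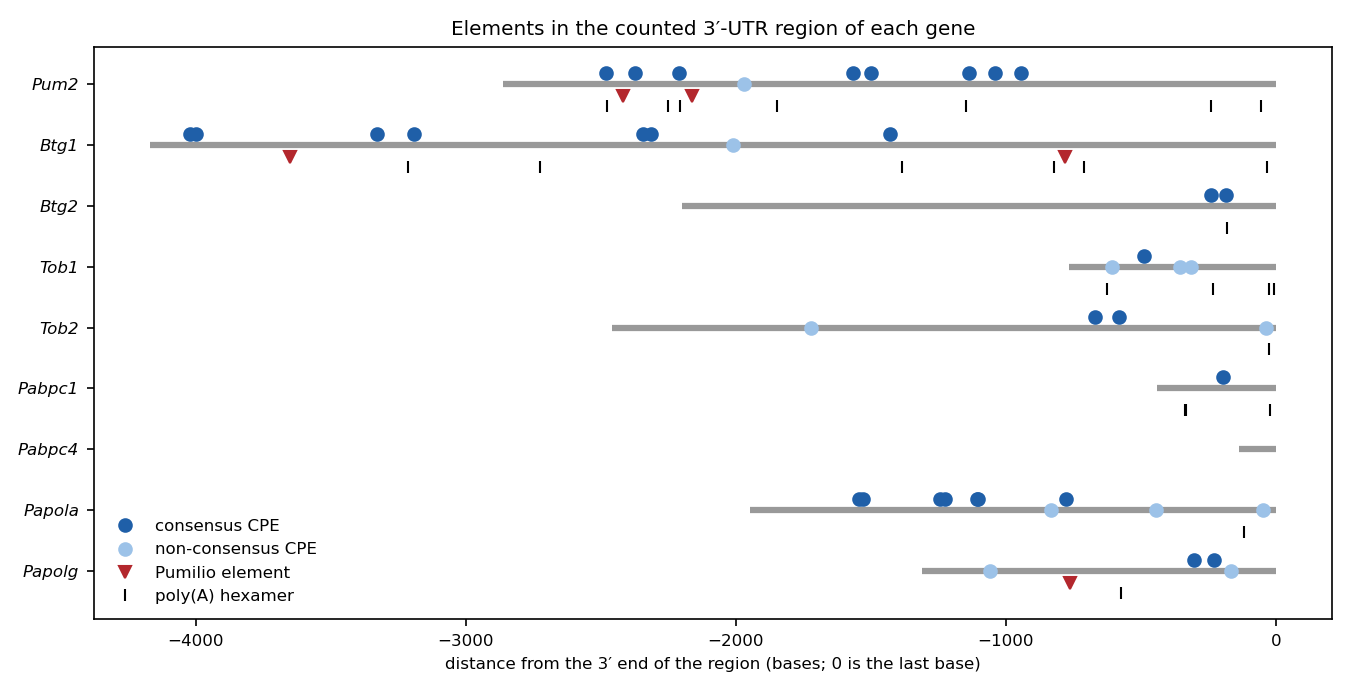
Positions of consensus and non-consensus CPEs, Pumilio elements and polyadenylation hexamers (AATAAA or ATTAAA) in the counted 3′-UTR region of each gene, plotted as distance in bases from the 3′ end of the region. Btg2 has its 2 consensus CPEs beside its only hexamer, whereas the 8 of Pum2 and 7 of Papola lie farther from the end. Of the Pum2 CPEs, those at bases 381 and 651 also overlap hexamers, which lie upstream. The 135-base region counted for Pabpc4 has none.

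Counted regions ran from 135 bases in Pabpc4 to 4170 in Btg1 and, by GENCODE M21, lay in the last exon of each gene except that of Pabpc4, which was exon 3 of a 15-exon transcript. They were chr12:8749721-8752581 for Pum2, chr10:96618644-96622813 for Btg1, chr1:134075170-134077368 for Btg2, chr11:94214729-94215495 for Tob1, chr15:81848270-81850728 for Tob2, chr15:36595661-36596099 for Pabpc1, chr4:123289079-123289213 for Pabpc4, chr12:105836861-105838807 for Papola and chr11:23862646-23863957 for Papolg (mm10). No exon of another annotated gene overlapped any of them. Similar sequence lay elsewhere in the genome for 3 genes: 98.9% identical over all of the Pabpc1 region on chromosome 17, 97.8% identical over the first 982 bases of Btg1 in a pseudogene on chromosome X, and at most 90.9% identical over the last part of Papola, so reads of Pabpc1 and Btg1 may be shared with these copies. Bases 216 to 439 of Pabpc1 also had a 99.1% identical copy in Ptk2 on chromosome 15. Further Pabpc1 copies, some over the whole region, were 82.3% to 94.1% identical. The deposited table predicted a CPE-dependent effect for the counted region of 3 genes (Btg1, Btg2 and Papola, each repression) and, for Pum2, activation in a shorter region of 1734 bases.

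The libraries held 467696 to 2492300 reads in regions with a symbol, and the deposited RPKM values implied library totals of 1714630 to 3866559 reads. 3′-UTR regions took 46.9% to 51.5% of the Input totals, 49.3% and 70.7% of the untreated and LPS WT RIP and 27.5% and 32.1% of the untreated and LPS KO RIP. Levels are therefore given as CPM, reads scaled by the 3′-UTR total of each library. On library totals in place of 3′-UTR sums, every WT over KO RIP log2 ratio is higher by 0.842 (untreated) and 1.141 (LPS), and with TMM factors by 0.195 and 0.225. The 8 macrophage markers all had reads in the 4 Inputs, summing to 2530 to 3560 CPM, and of 11 markers of other cell types 5 had a row in the table, all at 0 in both untreated Inputs and with a summed level of 6.85 and 16 in the LPS Inputs of WT and KO, where Cd3e, Epcam and Hba-a1 were at 0. Summed LPS response genes stood at 82.9 and 3730 CPM in the untreated and LPS WT Inputs and at 73.2 and 3830 in those of the KO.

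The targeted gene, Cpeb4, was read first. Its 3′-UTR had 130 and 136 CPM in the untreated and LPS WT Inputs and 52 and 52.6 in the KO Inputs, so its RNA was lower in the KO but still read. In RIP it stood at 836 and 770 in WT cells and 257 and 367 in KO cells. As log2 ratios, by the rule given below, RIP over Input was similar in both genotypes. It was 2.67 and 2.50 in untreated and LPS WT cells and 2.29 and 2.79 in KO cells. Divided by the Input ratio, WT over KO RIP was 0.38 untreated and -0.29 with LPS, neither called. Since the 3′-UTR may lie outside the deleted part, these reads do not check for CPEB4 protein, and the KO RIP serves as the background of the pull-down.

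Levels of different genes were compared as CPM divided by region length in kilobases. In the untreated WT Input this level was 86.2 for Papola (95% Poisson interval 73.2 to 101), 81.3 for Btg2, 78.5 for Pabpc1, 52.7 for Btg1, 45.5 for Tob2 and 41.4 for Pum2, and neighbours in this order had overlapping intervals, whereas in the LPS WT and untreated KO Inputs Btg1 and Pum2, again neighbours, did not overlap. Tob1 stood at 1.4 from 1 read, and Papolg and Pabpc4 had 0 reads, where 3 reads would be a level of 2.46 for Papolg and 23.9 for the short region of Pabpc4. In the untreated WT RIP the order was Pabpc1 at 915, Btg2 at 219, Pum2 at 178, Papola at 127, Btg1 at 120 and Tob2 at 106, with overlapping intervals only between Papola, Btg1 and Tob2. Pum2 stood last of these 6 mRNAs in that Input, overlapping with Tob2, and the third in the WT RIP. In the KO RIPs Pum2 came directly after Pabpc1, at 108 untreated (overlapping with Btg1) and 90.2 with LPS (overlapping with Btg2). Pabpc4 had at most 3 reads in any library and entered no comparison. Levels per library reflect both the RNA per cell and the number of cells that hold it, which cannot be told apart here.

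**Figure D2:**
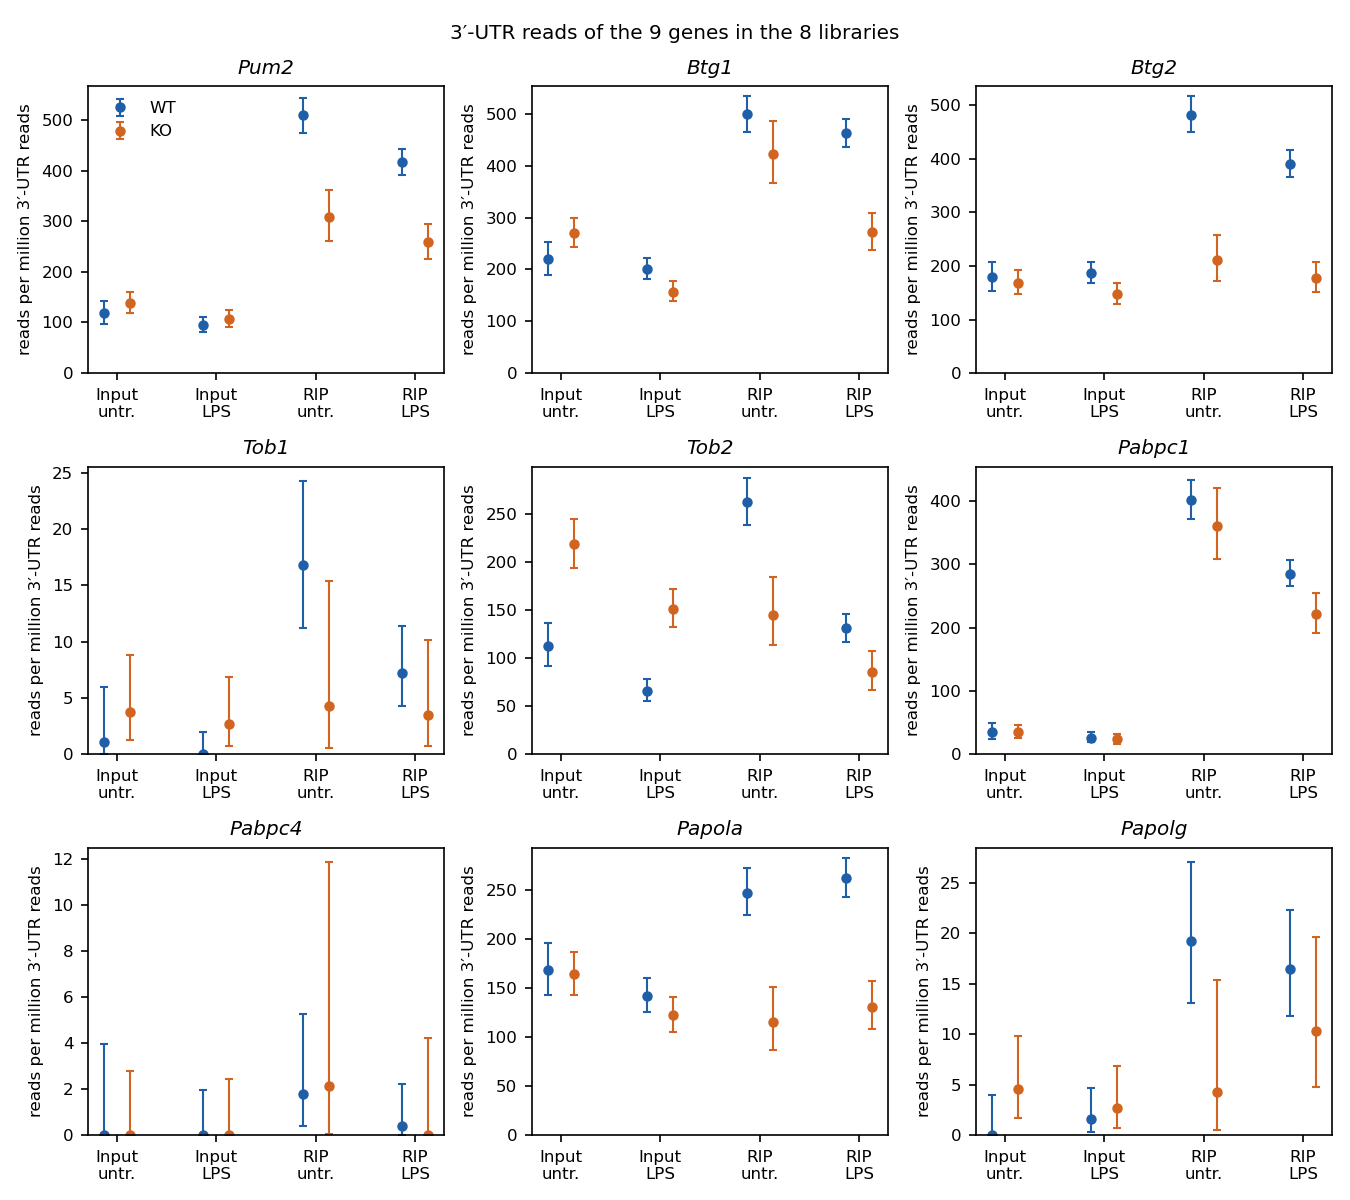
CPM over 3′-UTR reads (linear axes from 0) of each gene in the 8 libraries, WT in blue and KO in orange, 1 library per point with its 95% Poisson counting interval. Pabpc1 stands far higher in RIP than in Input in both genotypes, and Tob2 is higher in the KO than the WT Inputs. Pum2 is also higher in RIP than in Input, in the KO by 2.22-fold untreated and 2.44-fold with LPS.

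Ratios are given as log2 of scaled reads with 1 read added, and a gene was called where the ratio was past 0.5 in size and its 95% counting interval lay on 1 side of 0, among genes with at least 10 reads in each pair of libraries used. The first comparison asked which of these mRNAs were more abundant in the CPEB4 pull-down of WT cells than in the same pull-down without CPEB4. In untreated cells 4 of the 8 measured genes were called higher in WT RIP than in KO RIP (Pum2, Btg2, Tob2 and Papola), beside 12.3% of 8064 genes called higher and 18.1% called lower. In LPS-treated cells 5 of 8 were higher (the same 4 genes and Btg1), beside 16.4% of 8310 genes called higher and 21.7% called lower. None of the 8 was called lower in either state. On library totals all 8 were called higher in both states, beside 42.7% of all genes untreated and 60% with LPS. Under that scaling, TMM and median-of-ratios factors, all genes split into 13.8% to 42.7% higher and 1.9% to 16.1% lower untreated and 19.5% to 60% higher and 2% to 19.2% lower with LPS. Of the 8, Tob1 and Papolg had fewer than 10 reads in either KO RIP and were tested only through their WT RIP reads.

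Pum2 had 118 and 95.4 CPM in the untreated and LPS WT Inputs, 139 and 106 in the KO Inputs, 509 and 416 in the WT RIP and 308 and 258 in the KO RIP. Both WT RIP values lay above both KO RIP values, and all RIP values above all Input values. WT RIP over KO RIP was 0.72 (0.46 to 0.97) untreated and 0.68 (0.47 to 0.89) with LPS, a 1.64-fold and 1.6-fold difference.

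Btg2, a BTG protein induced by stress and p53 in many cells, had 179 and 187 CPM in the untreated and LPS WT Inputs, 169 and 148 in the KO Inputs, 483 and 391 in the WT RIP and 212 and 178 in the KO RIP. The KO RIP values were close to those of the Inputs, and the WT RIP values stood above all others. WT RIP over KO RIP was 1.18 (0.88 to 1.48) untreated and 1.13 (0.88 to 1.37) with LPS, higher than in 93.2% and 92.4% of the genes tested.

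Btg1, an antiproliferative relative of Btg2, had 220 and 201 CPM in the untreated and LPS WT Inputs, 271 and 157 in the KO Inputs, 499 and 463 in the WT RIP and 423 and 272 in the KO RIP. The WT and KO RIP differed less in untreated cells than in LPS-treated cells, with 0.23 (0.01 to 0.45) and 0.76 (0.56 to 0.97), and only the second was called. Divided by the WT over KO Input ratio, the values were 0.53 (0.20 to 0.86) untreated and 0.41 (0.10 to 0.72) with LPS. Of these only the untreated value was called on 3′-UTR sums. The LPS change of RIP over Input was 0.03 (-0.25 to 0.30) in WT and 0.14 (-0.22 to 0.50) in KO cells, neither called. The KO RIP of Btg1 fell with LPS while the WT RIP did not pass the threshold, as described with the LPS comparison.

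Tob2, an adaptor that joins CCR4-NOT to poly(A)-binding protein, had 112 and 65.9 CPM in the untreated and LPS WT Inputs, 219 and 151 in the KO Inputs, 262 and 131 in the WT RIP and 145 and 84.9 in the KO RIP. WT RIP over KO RIP was 0.83 (0.46 to 1.2) untreated and 0.61 (0.25 to 0.97) with LPS.

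Its paralogue Tob1 had few reads: 1 and 0 in the untreated and LPS WT Inputs, 5 and 4 in the KO Inputs, 28 and 18 in the WT RIP and 2 and 3 in the KO RIP. The ratio of WT to KO RIP was 1.44 (-0.27 to 3.16) untreated and 0.73 (-0.82 to 2.29) with LPS, neither called. It was called higher untreated with 0.1 reads added and in both states on library totals.

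Papola, the main nuclear poly(A) polymerase, had 168 and 142 CPM in the untreated and LPS WT Inputs, 164 and 122 in the KO Inputs, 247 and 262 in the WT RIP and 115 and 131 in the KO RIP. As with Btg2, the WT RIP stood above every other library. WT RIP over KO RIP was 1.08 (0.67 to 1.48) untreated and 0.99 (0.71 to 1.28) with LPS, 2.11-fold and 1.99-fold. Papolg, its paralogue, had 0 and 3 reads in the untreated and LPS WT Inputs, 6 and 4 in the KO Inputs, 32 and 41 in the WT RIP and 2 and 9 in the KO RIP. Its WT over KO RIP ratio was 1.63 (-0.08 to 3.33) and 0.55 (-0.44 to 1.55), neither called. It was called higher untreated with TMM factors or 0.1 reads added and in both states on library totals.

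Pabpc1, the main cytoplasmic poly(A)-binding protein, had 34.4 and 25.8 CPM in the untreated and LPS WT Inputs, 34.7 and 23.3 in the KO Inputs, 402 and 285 in the WT RIP and 361 and 221 in the KO RIP. Both pull-downs were far above the Inputs, and the genotypes lay close together. WT RIP over KO RIP was 0.15 (-0.10 to 0.39) untreated and 0.36 (0.13 to 0.59) with LPS, neither called, with upper bounds of 0.39 and 0.59. With TMM factors the LPS ratio of Pabpc1 passed the threshold too.

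Dividing the WT over KO RIP ratio by the WT over KO Input ratio took account of unequal starting RNA. For this input-corrected ratio 6 genes had enough reads, and 5 of them were called higher untreated (Pum2, Btg1, Btg2, Tob2 and Papola) beside 14.5% of 7201 genes called higher and 16.1% called lower. With LPS 4 of 6 were higher (Pum2, Btg2, Tob2 and Papola) beside 14.1% of 7575 genes called higher and 21.4% called lower. Tob2 led with 1.79 (1.30 to 2.28) untreated and 1.80 (1.32 to 2.28) with LPS, above 96.2% and 97.9% of the genes tested. Before this correction its WT over KO RIP ratios were 0.83 and 0.61, the latter the lowest of the members called with LPS. Its WT over KO Input ratios were -0.96 and -1.19, so the Inputs made up much of the lead. Btg2 stood at 1.09 and 0.79, Papola at 1.04 and 0.77, Pum2 at 0.94 and 0.83 and Btg1 at 0.53 and 0.41, the last not called on 3′-UTR sums but called under the other 3 scalings. Pabpc1 was the sixth gene, at 0.14 (-0.54 to 0.83) untreated and 0.22 (-0.44 to 0.88) with LPS. Tob1 and Papolg had too few Input reads for this ratio. The other 3 scalings called 15.2% to 39.6% higher and 2.64% to 15.4% lower among all genes untreated, and 19.1% to 53.7% higher and 1.76% to 17% lower with LPS.

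**Figure D3:**
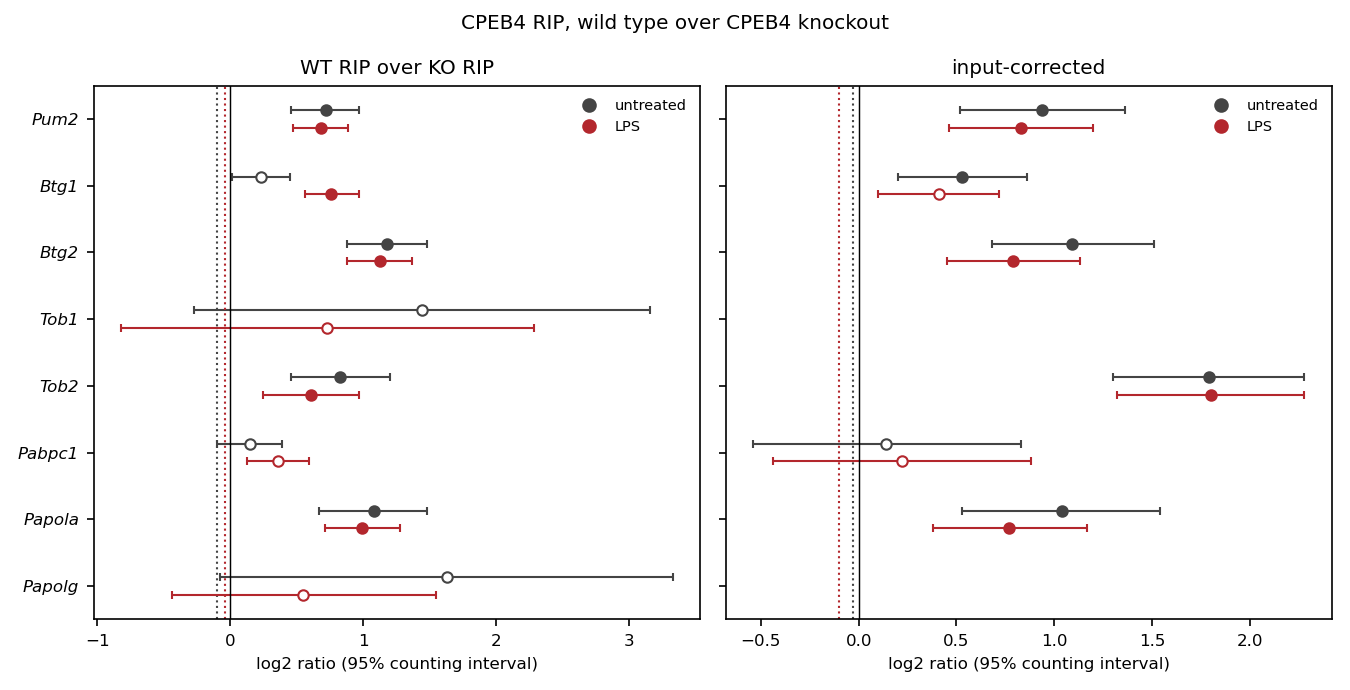
Log2 ratio of WT to KO CPEB4 RIP (left) and the same ratio divided by that of the Inputs (right) with 95% counting intervals, untreated in grey and LPS in red; filled points were called, open points were not, and dotted lines mark the median of all genes tested. Btg2, Papola, Pum2 and Tob2 are called in both panels and both states, while Pabpc1 is called in none on 3′-UTR sums.

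The Inputs alone compared the starting RNA of the genotypes. Tob2 was the only gene of the 6 with enough reads that was called, lower in WT than in KO by -0.96 (-1.28 to -0.64) untreated and -1.19 (-1.51 to -0.88) with LPS, which placed it below all but 5.24% and 1.31% of the genes tested. Among all genes 3.25% of 7845 were called higher and 4.83% lower untreated, and 5.19% of 8151 higher and 4.09% lower with LPS. With LPS the other scalings gave 3.52% to 4.22% higher and 4.92% to 5.82% lower. The other 5 members lay between -0.30 for Btg1 untreated and 0.35 for Btg1 with LPS.

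RIP over Input within a genotype compared pull-down with starting RNA. In the WT the 6 genes with at least 10 reads in each Input (Pum2, Btg1, Btg2, Tob2, Pabpc1 and Papola) were called higher in RIP in both states, beside 27.3% of 8359 genes called higher and 27.3% called lower untreated, and 29.2% of 8767 called higher and 32.7% called lower with LPS. Tob1 and Papolg, with at most 3 reads in either WT Input, were tested only through their RIP reads and so had to differ. In the KO, 3 of 6 genes were higher untreated (Pum2, Btg1 and Pabpc1) and 1 lower (Tob2), beside 20.8% of 7708 genes called higher and 14.6% called lower. With LPS 4 of 7 were higher in KO cells (the same 3 and Papolg, the last from 4 Input and 9 RIP reads and not called by the chi-square test) and 1 lower (Tob2), beside 22.1% of 7861 called higher and 18.0% called lower. The other scalings gave 31.8% to 42.7% higher and 20.8% to 30% lower in LPS-treated WT cells, where the 6 genes stayed called, and, in the KO, 6.8% to 19.4% higher and 16.4% to 42.3% lower untreated and 7.31% to 20.6% higher and 20.1% to 44.5% lower with LPS.

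Pabpc1 was far above Input in the pull-down of both genotypes. Its ratio was 3.50 (3.0 to 4.01) in the untreated WT, 3.36 (2.89 to 3.82) in the untreated KO, 3.44 (3.02 to 3.85) in the LPS WT and 3.22 (2.70 to 3.73) in the LPS KO. These ratios of 9.29-fold to 11.3-fold placed it above 98.9% to 99.6% of the genes tested in each of the 4 pairs. The part of reads from copies of the Pabpc1 region in these ratios was not tested. Pum2 was also above Input in both genotypes, with 2.09 (1.81 to 2.38) and 2.12 (1.89 to 2.34) in the untreated and LPS WT and 1.15 (0.84 to 1.47) and 1.28 (0.99 to 1.58) in KO cells. On library totals the untreated KO value was 0.39 and was not called. Its WT and KO intervals did not overlap in either state.

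The BTG/TOB genes differed from one another. Btg1 had 1.18 and 1.2 in WT cells and 0.65 and 0.79 in KO cells, untreated and with LPS, all called on 3′-UTR sums, while on library totals both KO calls were lost and the untreated value turned to -0.12. Btg2 had 1.43 and 1.06 in WT cells, both called, and 0.33 (-0.01 to 0.67) and 0.27 (-0.02 to 0.57) in KO cells, neither called. Tob2 had 1.21 and 0.98 in WT cells and -0.57 (-0.95 to -0.19) and -0.82 (-1.19 to -0.44) in KO cells, so that on 3′-UTR sums its call turned direction between genotypes. The chi-square test did not call the untreated KO value. The Tob1 ratio in the untreated WT was 3.02 (0.95 to 5.08) from 1 Input read, and with LPS, where the Input had 0 reads, RIP was at least 4.57-fold higher taking 3 reads per library as the floor.

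Among the polymerases, Papola had the lowest WT ratios of the 6 genes, 0.55 (0.29 to 0.82) untreated and 0.88 (0.68 to 1.08) with LPS. In the KO it stood at -0.48 (-0.91 to -0.06) and 0.11 (-0.23 to 0.44), neither called on 3′-UTR sums. The untreated KO value was called lower on library totals (-1.25), with TMM (-0.58) or median-of-ratios factors (-0.54) and with 0.1 reads added (-0.50), and on library totals the LPS value was called lower too (-0.58). Papolg was at least 5.95-fold higher in RIP than in the untreated WT Input, which had 0 reads, and its ratio was 3.0 (1.52 to 4.48) with LPS and 1.79 (0.24 to 3.33) in the LPS KO. Since RIP over Input and WT over KO RIP share the same RIP libraries, their values are given side by side and are not independent of each other.

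**Figure D4:**
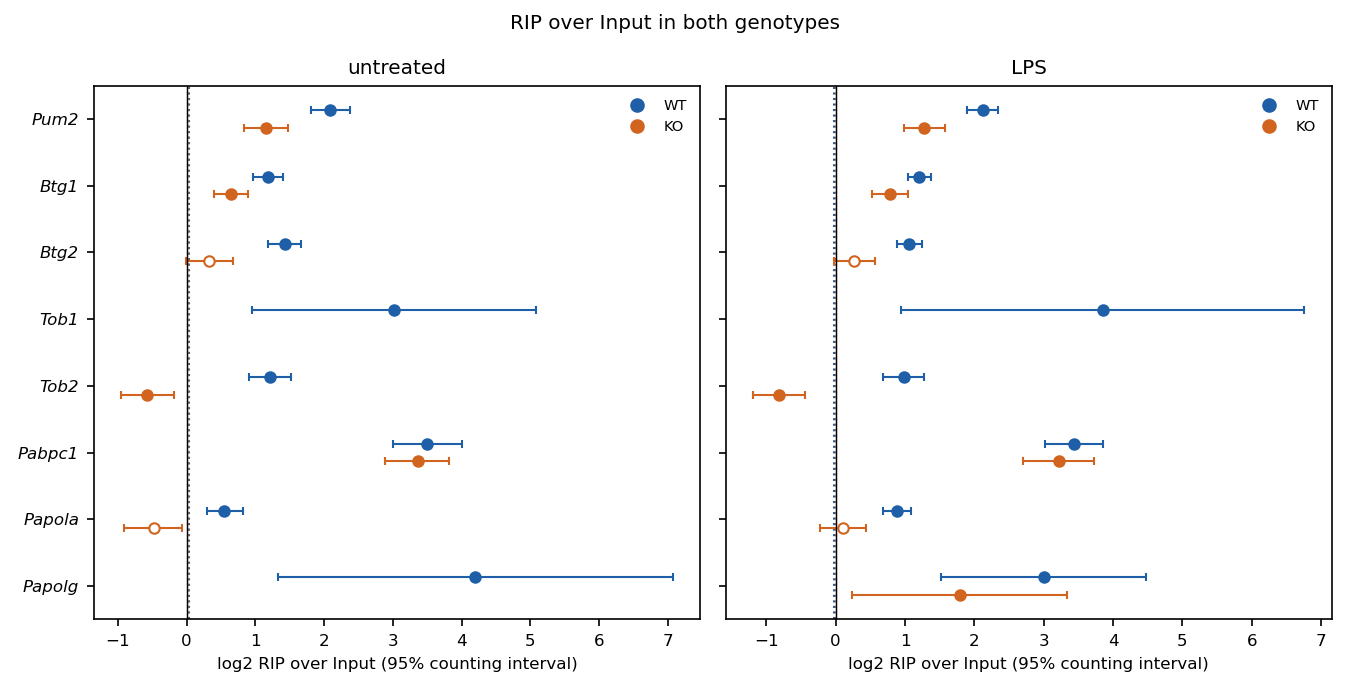
Log2 ratio of RIP to Input with 95% counting intervals in untreated (left) and LPS-treated (right) cells, WT in blue and KO in orange; filled points were called, open points were not, and dotted lines mark the medians of all genes tested. Pabpc1 lies near 3.5 in both genotypes, whereas Tob2 lies above 0 in WT cells and below 0 in KO cells.

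For Pum2, Pabpc1 and Papola a shorter annotated region that begins at the same stop codon split the counted 3′-UTR into a first and a last segment. In Papola the first 413 bases, 21.2% of the length, held 5.77% (exact binomial 95% interval 2.67 to 10.7) and 7.78% (4.88 to 11.6) of the reads in the untreated and LPS WT Inputs and 9.22% and 7.65% in the KO Inputs, but 24.0% (20.0 to 28.5) and 23.5% (20.3 to 27.0) in the WT RIP and 22.2% and 26.3% in the KO RIP. The share was thus higher in all 4 RIP than in all 4 Input libraries. The interval of the untreated KO RIP (12 to 35.6) overlapped those of the untreated and LPS KO Inputs, which reached 13.9 and 12.5. RIP over Input in the WT was 2.48 (1.54 to 3.42) in the first segment of Papola and 0.24 (-0.04 to 0.52) in the last, untreated, and 2.42 (1.78 to 3.07) and 0.61 (0.39 to 0.83) with LPS. For untreated WT cells the difference between segments, 2.24 (1.26 to 3.22), was above that of 97.4% of 849 genes that could be split in this way, whose median was -0.10. In the KO the same difference was 1.51 (0.41 to 2.62) untreated and 2.05 (1.08 to 3.01) with LPS. Of the 156 untreated WT Input reads of Papola, 147 lay in the last 1534 bases.

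Pum2 had a difference of the same direction. Its first 1734 bases, 60.6% of the length and with both Pumilio elements, held 50.9% and 56.9% of the reads in the untreated and LPS WT Inputs, 66.8% and 62.3% in the KO Inputs, 72.3% and 73.8% in the WT RIP and 77.8% in each KO RIP. All 4 RIP shares lay above all 4 Input shares, but the interval of the untreated KO Input (59.5 to 73.6) overlapped those of all 4 RIP libraries. The first segment of Pum2 also held 6 of its 8 consensus CPEs. In the untreated WT, RIP over Input was 2.59 (2.2 to 2.98) in the first segment and 1.26 (0.84 to 1.68) in the last. The difference between the Pum2 segments was above that of 88.7% and 88.2% of the genes split in untreated and LPS WT cells. In KO cells it was above 74.5% untreated and 84.6% with LPS. In Pabpc1 the first 193 bases held 61.5% to 65.6% of the reads in the 4 RIP libraries, whereas the Inputs, with 32 to 49 reads in the region, ranged from 21.9% to 67.3%. Its segments differed by 2.63 (1.46 to 3.80) in untreated WT RIP over Input, from 7 Input reads in the first, and by -0.16 (-1.03 to 0.70) with LPS.

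The ratio of WT to KO RIP did not separate the segments beyond error in any of the 3 genes. It was 1.11 (0.28 to 1.94) in the first and 1.04 (0.58 to 1.5) in the last segment of Papola in untreated cells, and 0.81 (0.25 to 1.36) and 1.04 (0.71 to 1.38) with LPS. For Pum2 it was 0.61 (0.32 to 0.90) and 1.01 (0.48 to 1.53) untreated. The last part of Papola, from base 1408, is the part with similar sequence elsewhere, and its share in these values was not tested. Nearly all of the last segment of Pabpc1 has a near-identical copy in Ptk2, besides the copy of the whole region on another chromosome. The share of these Pabpc1 copies was not tested either.

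Peak scores in the deposited tables, each the highest MACS score over the region for a RIP against its Input, gave a second view of the same libraries. Shares of genes with a peak are over all 14925 genes with no read minimum, unlike the shares of genes called. In the LPS WT RIP 6 of the 9 genes had a peak, where 15.4% of all genes did, with Pum2 at 3100, Pabpc1 at 2567.36, Btg1 at 1242.3, Btg2 at 1133.95, Papola at 717.17 and Tob2 at 320.77. In the untreated WT RIP 5 had one, beside 6.83% of all genes, with Pabpc1 at 1181.28, Pum2 at 1045.86, Btg2 at 386.79, Tob2 at 151.11 and Btg1 at 113.65. The KO RIP had a peak on Pabpc1 in both states (459.08 untreated and 439.39 with LPS) and on Pum2 with LPS (98.98), beside 1.03% and 1.17% of all genes. The untreated KO RIP was also the library with the fewest reads.

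LPS over untreated showed how the mRNAs of the tail machinery changed during activation. In the WT Input 1 of 6 genes with enough reads was called lower (Tob2) and none higher, beside 17.1% of 8163 genes called higher and 23.3% called lower. In the KO Input 2 of 7 were lower (Btg1 and Tob2) and none higher, beside 18.2% of 8250 called higher and 26.8% called lower. Under the other scalings all genes split into 19% to 20.9% higher and 19.3% to 21.2% lower in the WT Input and 21.6% to 23.7% higher and 20% to 22.3% lower in the KO Input. The medians of these members were -0.28 and -0.53, with -0.08 and -0.18 for all genes tested. Tob2 fell by 0.77 on the log2 scale in WT cells (interval -1.14 to -0.39) and fell by 0.53 in KO cells (-0.78 to -0.28). With library totals, TMM or median-of-ratios factors the Tob2 call in the KO Input was lost. Btg1 stood at -0.13 (-0.38 to 0.11) in WT cells and fell by 0.78 in KO cells (-1.02 to -0.55). Pum2 had -0.32 and -0.39, Papola -0.24 and -0.42, Pabpc1 -0.43 and -0.56 and Btg2 0.06 and -0.19 in WT and KO, none called.

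On 3′-UTR sums Tob2 was also called lower with LPS in the pull-downs of both genotypes, though the chi-square test did not call it in the KO RIP. The WT RIP had 2 of 8 genes called lower, Tob2 at -1.0 (-1.21 to -0.79) and Tob1 at -1.19 (-2.03 to -0.36), beside 16.7% of 8901 genes called higher and 29.7% called lower. The KO RIP had 3 of 7 called lower, Tob2 at -0.78 (-1.25 to -0.31), Pabpc1 at -0.71 (-1.0 to -0.41) and Btg1 at -0.64 (-0.91 to -0.37), beside 15.5% of 7227 called higher and 24.4% called lower. The other scalings gave 23.1% to 32.9% higher and 14.2% to 21.3% lower for the WT RIP and 20.2% to 21% higher and 17.4% to 18.3% lower for the KO RIP. Pabpc1 in the WT RIP was at -0.49 (-0.65 to -0.34), just inside the threshold. Papola was 0.08 (-0.09 to 0.26) in the WT RIP and 0.17 (-0.30 to 0.63) in the KO RIP. On the scaling by TMM the LPS ratios of all genes are 0.282 higher in the WT RIP and 0.251 higher in the KO RIP, and the Pabpc1 and Btg1 calls in the KO RIP are lost. On library totals, where WT RIP ratios are 0.520 higher, the Tob1 and Tob2 calls in the WT RIP are lost and Papola is called higher.

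The LPS change itself was compared between genotypes for the 6 genes with enough Input reads and the 7 with enough RIP reads. Btg1 differed by 0.65 (0.31 to 0.99) in the Inputs, WT minus KO, beside 5.49% of 7867 genes called higher and 3.41% called lower in that difference, and by 0.53 (0.23 to 0.83) in the RIPs, beside 4.67% of 7149 called higher and 4.62% called lower. No other member was called.

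**Figure D5:**
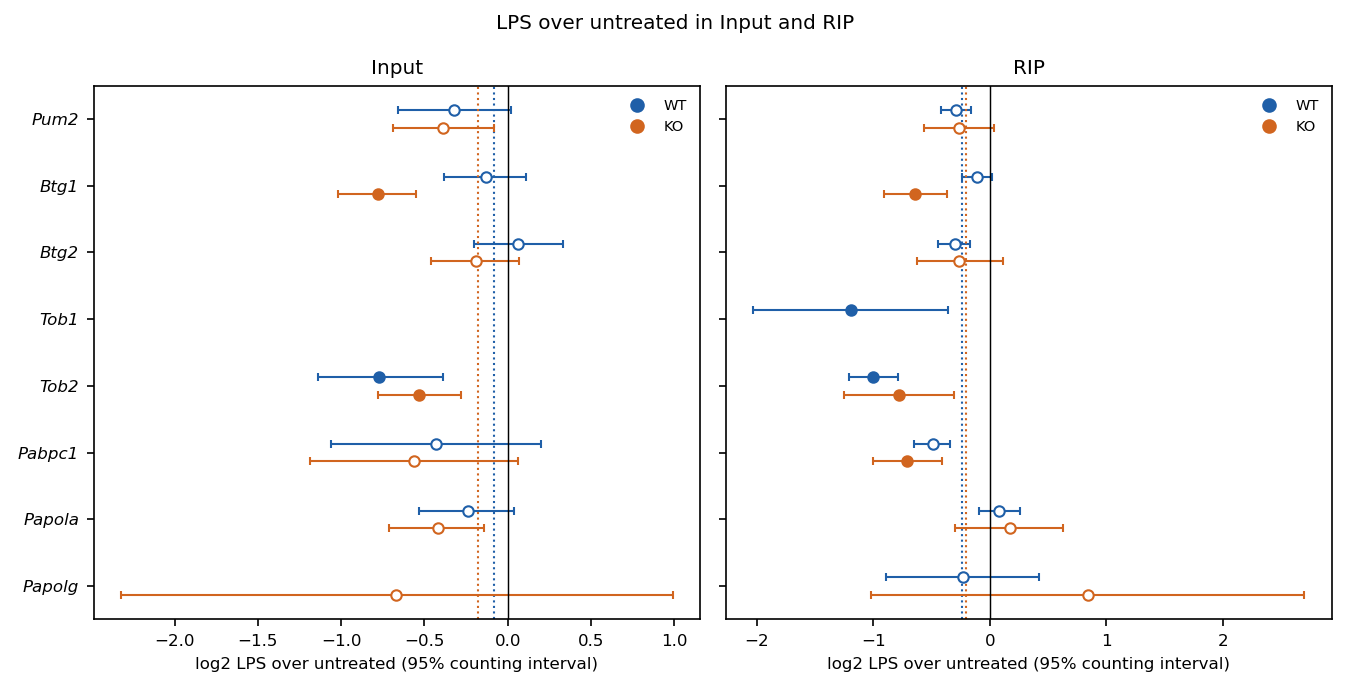
Log2 ratio of LPS-treated to untreated cells with 95% counting intervals in Input (left) and RIP (right), WT in blue and KO in orange; filled points were called, open points were not, and dotted lines mark the medians of all genes tested. On 3′-UTR sums Tob2 is called lower in all 4 comparisons, and Btg1 in those of the KO but not of the WT, while other scalings drop the Tob2 call in the KO Input and the Btg1 call in the KO RIP, library totals that of Tob2 in the WT RIP and the chi-square test that of Tob2 in the KO RIP.

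Genes of the same pathways, 72 of 77 listed genes having a row in the table, were read by the same rule. Of the 61 with enough reads in untreated RIP, 13 were higher in WT than KO RIP and 1 lower, with a median of 0.12, and with LPS 14 of 57 were higher and 4 lower, with a median of 0.28. Among all genes tested 12.3% were higher and 18.1% lower untreated, with a median of -0.10, and 16.4% were higher and 21.7% lower with LPS, with a median of -0.04. Among CCR4-NOT subunits 4 of 11 were higher untreated and 3 of 10 with LPS, none lower, led by Cnot7, a catalytic deadenylase subunit that BTG and TOB proteins bind, at 1.77 and 1.18, and with LPS by Cnot6, another catalytic subunit, at 0.93. Of the other deadenylases 1 of 6 untreated and 1 of 5 with LPS was higher, which was Pan3, the adaptor of the PAN2 deadenylase, at 1.02 and 1.10.

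Among the non-canonical polymerases 2 of 8 were higher untreated, Fam46a at 0.92 and Papd7 at 0.73, and with LPS 3 of 7 were higher and 2 lower, with Zcchc6, a uridylyltransferase, at -1.04. Poly(A)-binding proteins and partners had 2 of 11 higher and 1 lower untreated and 2 higher and 2 lower with LPS. Paip1, a partner of poly(A)-binding protein in translation, was higher at 1.30 and 1.17, and Paip2, which displaces that protein from the tail, at 0.84 untreated. For 3′ end cleavage factors 1 of 13 and 3 of 12 were higher, led by Cpsf4, a subunit of the cleavage and polyadenylation complex, at 1.87 and 1.4. Of decay factors that act after deadenylation 3 of 9 and 1 of 9 were higher, led by Pnrc1 at 1.93 and 1.06 and, untreated, by Dcp1a, a decapping cofactor, at 0.84.

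With LPS in the WT Input, 8 of 51 pathway genes were higher and 7 lower, with a median of 0.07, beside 17.1% of all genes higher and 23.3% lower and a median of -0.08. Nanos1, a partner of Pumilio proteins, fell by 4.62 on the log2 scale (-6.70 to -2.53), from 23 reads to 1, and Cnot6l by 1.24, while Cnot7 rose by 1.31. Parn and Pan3 fell by 1.37 and 0.80. Fam46a and Papd7 rose by 1.10 and 1.07, Larp1, which binds poly(A)-binding protein and the cap of ribosomal protein mRNAs, by 0.94, while Paip2b fell by 0.98. Dcp1a rose by 0.62, and Dis3l fell by 2.03 (-3.76 to -0.30) on 7 untreated and 3 LPS reads. No cleavage factor was called among 9. In the KO Input 6 of 49 were higher and 10 lower, with a median of -0.24, beside 18.2% and 26.8% of all genes and a median of -0.18.

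The genes most like each member over the 8 libraries were named by the root mean square difference of centred log2 levels among 1082 to 1083 genes that had 50 or more reads throughout, a description only since all points share the same libraries. For Pum2 they were Wapl and Fam63b, both at 0.17, and Larp4 at 0.19, where the median gene was at 0.99. For Btg1 they were Slc26a2 at 0.13, Hipk3 at 0.14 and Dync1li2 at 0.15, and for Papola Snx3 at 0.15, Wdr82 at 0.18 and Plekha1 at 0.20. For Btg2 they were Fndc3b, Abca1 and Set at 0.19 to 0.21. Tob2 had no gene closer than 0.35 (Supt16, followed by Txnip and B4galt6), and Pabpc1 none closer than 0.71 (Fam120a, followed by Fam63b and Erbb2ip).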

How the data were processed

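Members, gene lists and comparisons were chosen with earlier results of these data known. Per the methods, the authors aligned reads to mm10 with Bowtie2 2.2.2 in local mode, removed duplicates with sambamba, counted reads over Ensembl 3′-UTRs (use of strand not stated) and called peaks with MACS 1.4.2. The deposited tables hold raw counts of 8 libraries over 31117 regions, RPKM values that the authors computed on library totals, and the authors' highest MACS peak score per region. Columns with the authors' fold changes and p-values for RIP against Input were not used. Rows without a symbol (495, 0.902% to 1.04% of the reads) were left out.

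From the counts, 1 region per symbol was taken (most reads, then longest, then transcript ID), scaled to the column sums, 1 read was added, and log2 ratios were given normal 95% intervals from the read counts. PCR reads are not independent molecules, so intervals cover counting error only, and shallow libraries are least precise. Genes outside the members were named as the targeted gene, as at most 2 leading calls per pathway list and comparison, or as the 3 most alike genes. Alternatives were library totals, TMM (edgeR 4.0.16), median-of-ratios factors (DESeq2 1.42.0), 0.1 reads added, minimums of 50 reads or 1 read, the longest region, a log2 threshold of 1 and a chi-square test with Benjamini-Yekutieli adjustment. Sequence came from GRCm38.p6, where the counts of consensus CPEs and Pumilio elements equalled the deposited ones in all 14925 regions, similar copies from minimap2 2.31-r1302 and annotation from GENCODE M21. The calling step was tested on simulated data. One gene of the pathway lists and one sequence window are not reported here.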

Additional observations from a re-analysis of the deposited data

Results flagged for a closer look

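Btg1 was the member whose LPS change differed between the genotypes, with only the counting error of single libraries behind the comparison and no test over replicates. In the Inputs the log2 change with LPS was -0.13 in the WT and -0.78 in the KO, a difference of 0.65 (0.31 to 0.99). In the RIPs it was -0.11 in the WT and -0.64 in the KO, a difference of 0.53 (0.23 to 0.83). Btg1 reads numbered 204 and 381 in the untreated and LPS WT Inputs and 359 and 236 in the KO Inputs. The first 982 bases of its region match a pseudogene on chromosome X at 97.8% identity, whose part in the result was not tested.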

How the results depend on the processing

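Of 124 counts of called members under the alternatives, which pool higher and lower calls, 102 stayed within 1.5 times the value reported, and of 485 single ratios 417 stayed inside their counting interval. Pum2, Btg2, Tob2 and Papola were higher in WT than KO RIP in both states under every scaling, read minimum and choice of region run, while Tob2 with LPS lost its call under the chi-square test. On library totals 8 genes were called in WT over KO RIP in each state, 1 in the KO Input with LPS (Btg1), 1 in the WT RIP with LPS (Papola, higher, with Tob1 and Tob2 lost) and 1 in the KO RIP with LPS (Tob2), and the one called ratio that turned direction was Btg1 in KO RIP over KO Input, untreated, at -0.12. In untreated KO RIP over KO Input library totals called 1 gene higher (Pabpc1) and 2 lower (Tob2 and Papola), where 3 higher and 1 lower were reported, and TMM, median-of-ratios factors and 0.1 reads added each added Papola as lower. TMM and median-of-ratios scaling each left 1 gene in the LPS change of the KO Input (Btg1) and 1 in that of the KO RIP (Tob2). With a log2 threshold of 1 the counts were 2 (Btg2 and Papola, untreated) and 1 (Btg2, LPS) for WT over KO RIP, 2 and 3 for KO RIP over KO Input, 3 and 1 for the input-corrected ratio, 0 for the untreated Inputs of WT over KO, and for the LPS change 0 in both Inputs, 1 in the WT RIP (Tob1) and 0 in the KO RIP. A minimum of 50 reads and the chi-square test each left 1 gene (Tob2) in the LPS change of the WT RIP. Depth limited Tob1, Papolg and Pabpc4, whose Inputs held at most 6 reads each. No paired analysis was possible because each genotype, treatment and assay had 1 library, and for the same reason no replicate could be left out.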
